A study of Mus musculus with 8 samples.

Results

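Accessible chromatin was examined around Rag1, Rag2 and Dntt, the genes of the lymphocyte recombination machinery, in a pre-B cell line in which Ikaros was induced. Members were all ATAC-seq peaks with a summit in the body of 1 of these 3 genes or within 50 kb of it. They comprised 300 of the 767727 peaks in 8 peak lists. Peaks that overlapped between lists were merged into regions, and the members made up 59 of 174718 regions, 27 at the locus that Rag1 and Rag2 share and 32 at Dntt. Of these, 24 had a peak in every list, 21 in 2 to 7 lists and 14 in 1 list.

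The series follows the first 2 h after nuclear entry of Ikaros in the B3 line of mouse pre-B cells, which had been given Ikaros-ERt2, a fusion of Ikaros to a receptor domain that responds to 4-hydroxytamoxifen (4-OHT). Each library is a sample of this single line, all of them carry the fusion, and the labels give 2 replicates at each of 4 time points. The 0 h cells were untreated and the others were kept in 500 nM 4-OHT for 30 min, 1 h or 2 h, so 4-OHT itself and Ikaros cannot be told apart here. The labels do not state whether replicates were separate cultures, so the p-values below measure only the spread between these libraries, which may be technical.

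RAG1 and RAG2 form the endonuclease that cuts antigen receptor gene segments at their recombination signals, which begins V(D)J recombination. RAG1 carries the catalytic site and RAG2 a finger domain that binds methylated histone H3. Dntt encodes terminal deoxynucleotidyl transferase, the polymerase that adds bases without a template at the joins and so widens the antigen receptor repertoire. Rag1 and Rag2 lie next to each other and face each other, and in B lineage cells they are driven together by distal enhancers on the far side of Rag2. Ikaros is a zinc finger protein of lymphocytes with a GGAA or GGGA core in its site, and the Dntt promoter is a classical place of its binding. No file used here gives the positions of the published enhancers, so distal regions are called below by the distance of their summit from a gene start, with a minus sign for the 5′ side.

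In GRCm38, Rag2 lies on the plus strand at chr2:101624718-101632529, Rag1 on the minus strand at chr2:101638282-101649501 and Dntt on the plus strand at chr19:41029275-41059525. The sequences below are those of the member promoters, the 2 called distal regions, the pair of neighbouring regions 5′ of Rag1 of which 1 was lost and 1 gained, the strongest region of the Rag locus and, at Dntt, the 2 regions highest at 0 h and the lost intronic region. They are read from the RefSeq GRCm38 genome on the plus strand within 200 bp round the summit, and bases in annotated exons were left out. Capitals mark the Ikaros core words GGAA and GGGA, or TTCC and TCCC on the other strand.
Rag2 promoter, chr2:101624601-101624717: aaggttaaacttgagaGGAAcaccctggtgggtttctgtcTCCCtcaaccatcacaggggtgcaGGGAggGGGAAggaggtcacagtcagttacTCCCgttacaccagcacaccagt
Rag1 promoter, chr2:101649533-101649682: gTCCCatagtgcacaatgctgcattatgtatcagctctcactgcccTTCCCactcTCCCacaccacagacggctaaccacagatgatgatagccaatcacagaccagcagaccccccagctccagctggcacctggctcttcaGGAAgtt
Rag1 -1.2 kb, chr2:101650567-101650766: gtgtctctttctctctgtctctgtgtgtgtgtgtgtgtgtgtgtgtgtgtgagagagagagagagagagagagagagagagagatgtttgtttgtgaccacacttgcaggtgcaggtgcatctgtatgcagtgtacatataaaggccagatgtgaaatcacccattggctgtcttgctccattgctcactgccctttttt
Rag1 -1.6 kb, chr2:101650983-101651182: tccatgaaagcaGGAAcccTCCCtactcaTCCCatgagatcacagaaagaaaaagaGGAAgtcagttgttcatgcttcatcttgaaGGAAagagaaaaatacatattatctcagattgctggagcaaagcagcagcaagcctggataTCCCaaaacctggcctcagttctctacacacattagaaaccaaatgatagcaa
Rag2 -8.6 kb, chr2:101616010-101616209: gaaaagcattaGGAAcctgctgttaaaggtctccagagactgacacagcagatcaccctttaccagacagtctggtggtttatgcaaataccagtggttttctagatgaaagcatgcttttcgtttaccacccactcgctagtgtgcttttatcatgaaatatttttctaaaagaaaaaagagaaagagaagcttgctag
Rag2 -16.0 kb, chr2:101608625-101608824: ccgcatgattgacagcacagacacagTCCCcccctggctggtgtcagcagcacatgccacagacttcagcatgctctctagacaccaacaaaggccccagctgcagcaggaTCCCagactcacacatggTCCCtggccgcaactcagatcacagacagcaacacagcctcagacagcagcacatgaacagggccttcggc
Rag2 -25.8 kb, chr2:101598834-101599033: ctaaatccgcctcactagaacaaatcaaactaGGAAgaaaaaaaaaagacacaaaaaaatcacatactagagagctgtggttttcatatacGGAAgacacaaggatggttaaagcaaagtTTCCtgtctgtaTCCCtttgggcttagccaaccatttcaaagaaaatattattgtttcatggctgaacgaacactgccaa
Dntt -6.9 kb, chr19:41022279-41022478: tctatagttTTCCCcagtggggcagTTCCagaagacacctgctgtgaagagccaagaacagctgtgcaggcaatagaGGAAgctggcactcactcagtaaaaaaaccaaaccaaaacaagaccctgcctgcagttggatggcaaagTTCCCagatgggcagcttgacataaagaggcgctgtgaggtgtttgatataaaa
Dntt +7.0 kb, chr19:41036152-41036351: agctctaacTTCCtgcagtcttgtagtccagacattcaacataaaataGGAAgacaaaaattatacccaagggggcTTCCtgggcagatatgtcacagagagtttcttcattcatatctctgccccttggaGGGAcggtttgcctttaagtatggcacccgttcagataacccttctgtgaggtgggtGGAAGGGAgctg
Dntt +10.0 kb, chr19:41039170-41039369: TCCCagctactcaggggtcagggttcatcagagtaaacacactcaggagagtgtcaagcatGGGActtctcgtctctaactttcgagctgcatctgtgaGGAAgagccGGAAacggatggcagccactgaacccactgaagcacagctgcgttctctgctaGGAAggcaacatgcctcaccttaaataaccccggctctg
For Dntt, whose start had no peak within 1 kb in any list, the 250 bases before the start are given from the RefSeq promoter table of GRCm38.p6.
Dntt promoter, chr19:41029025-41029274: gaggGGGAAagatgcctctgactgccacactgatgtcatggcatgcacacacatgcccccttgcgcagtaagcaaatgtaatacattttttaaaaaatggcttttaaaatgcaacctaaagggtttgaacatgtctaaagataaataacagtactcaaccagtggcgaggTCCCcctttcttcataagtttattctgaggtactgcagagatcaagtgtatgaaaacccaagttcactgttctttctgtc

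Core words were counted over the full 200 bp windows, overlapping words (GGGA and GGAA in GGGAA) counted separately and both strands included. The window at the Rag2 promoter held 9 of them, a number that 5.1% of all 174718 windows reached or exceeded, against a median of 4 over all windows. At the 2 neighbouring Rag1 regions the counts were 0 in the -1.2 kb window and 6 in the -1.6 kb window, and 25.5% of all windows held at least 6. The -1.2 kb window also consists in good part of GT and GA repeats, as its letters show. It held 5 E-box words (CANNTG), the core that E2A proteins read, and 1.7% of all windows held at least 5. The strongest region of the locus, Rag2 -8.6 kb, held 1 core word and no E-box. In the 250 bases before the gene start, Dntt had 3 core words and Rag1 and Rag2 had 7 each, the median over 32851 annotated promoters being 6. Across the 59 member windows the median was 4 core words, as over all windows. A word match describes the letters of a window and is not a measured binding site.

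The lists held 85903 to 103897 peaks, with 13 to 19 in the Rag locus and 19 to 23 around Dntt. The median peak of a list had 11 to 14 fragments at its summit and the background ranged from 0.26 to 0.405 fragments per base, so single peaks rest on few fragments. The strength of a peak is given as its percentile, the share of the peaks of the same list whose fold of fragment pileup over local background was lower (ties split evenly). Fragment numbers were recovered as whole numbers from the deposited fold and p-value (relative misfit under 0.0001 for the strongest peak of each member in each list). On this scale the median of all tested regions shifted by 0.22 (log2) from 0 h to 2 h, and ratios to the 0 h level below include that shift. For a test, regions were required to be present in every list, and these 47875 were ranked by fold within each list, turned into normal scores (a shift of 1 is 1 standard deviation of all ranked regions) and fitted with limma. Regions with a Benjamini-Hochberg adjusted p under 0.01 over all 47875 were called lower or higher than at 0 h. Among promoters of pre-B cell markers, 8 had a peak in all 8 lists, those of Cd79a, Cd79b, Pax5, Ebf1, Igll1, Blnk, Il7r and Rag2, and that of Dntt had none. For 6 T cell markers 1 had a peak in all lists, and for 6 myeloid and 4 erythroid markers none did.

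**Figure D1:**
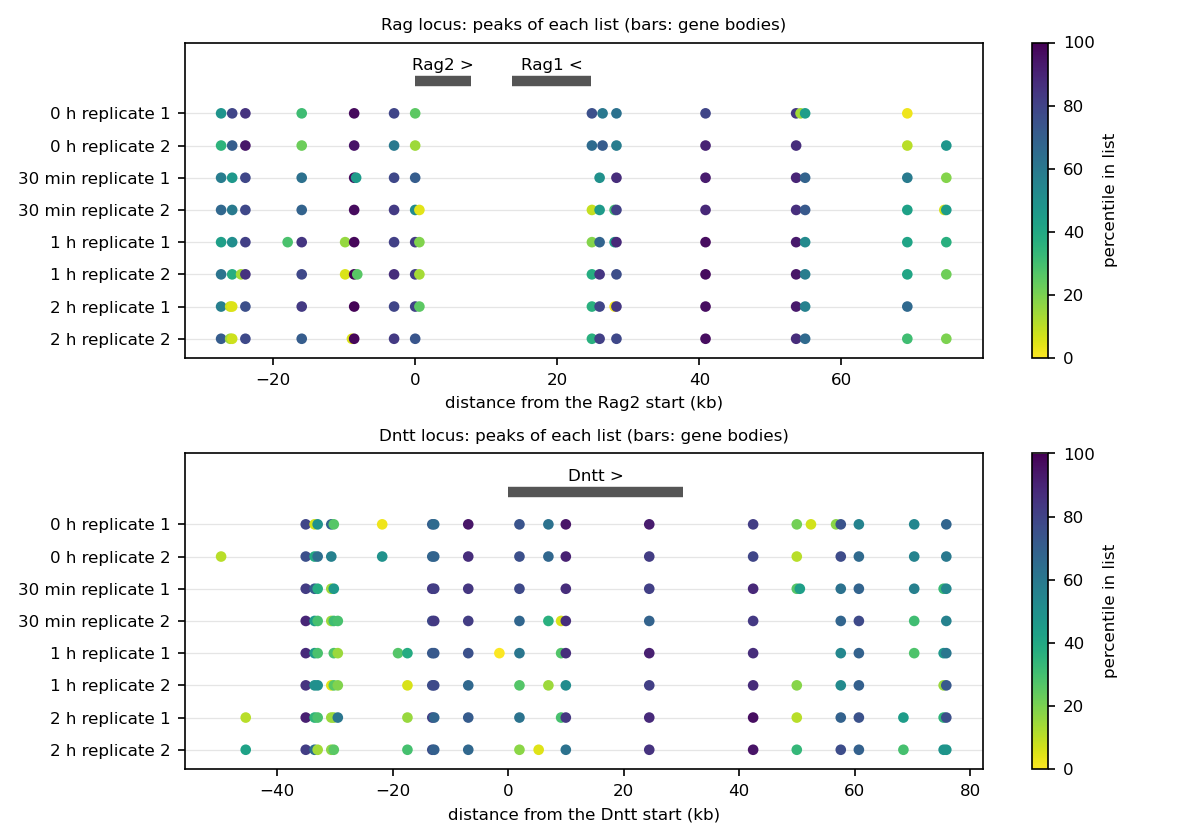
Peaks of each list along the Rag locus (top, distance from the Rag2 start in kb) and around Dntt (bottom, distance from the Dntt start in kb). Each point is the summit of a region that has a peak in that library, coloured by the percentile of the peak in its list, and bars mark the gene bodies with their direction. No peak lies in the interval between Rag2 +0.6 kb and the Rag1 start. Columns with points in both 0 h rows and in neither row of a later time mark lost peaks, and the reverse marks gained ones. Other columns that end or begin after 0 h do not count as lost or gained.

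Of the 59 regions, 40.7% had a peak in all 8 lists, against 27.4% of all regions, and 23.7% against 27.6% were in 1 list. Of the 24 tested members, none passed the threshold after 30 min in either direction (limma), where 0.0% of all tested regions were called lower and 0.0% higher. With no adjustment, p after 30 min was under 0.05 for 4 of the 24 below 0 h (background 9.94%) and 4 above (background 9.51%). At 1 h none of the 24 was lower (background 2.51%) and 2 were higher (background 1.1%), and the unadjusted p was under 0.05 for 6 below (background 15.5%) and 5 above (background 14.9%). At 2 h 1 was lower (background 4.71%) and 2 were higher (background 2.28%), with an unadjusted p under 0.05 for 6 below (background 17.4%) and 6 above (background 17.1%). Both 2 h libraries lay below both untreated ones at 6 of the 24 (background 29.8%) and above them at 10 (background 32.8%). For the mean of the 3 induced times against 0 h, 1 was lower (background 4.57%) and 2 were higher (background 2.53%). All 3 called regions lie at the Rag locus, at the Rag2 promoter and on its 5′ side. The median shift after 2 h was 0.55 over the 11 tested regions of the Rag locus and -0.20 over the 13 of the Dntt locus, beside 0.06 over all tested regions. A shift above 0 was found in 9 of 11 Rag regions and in 5 of 13 Dntt regions, beside 25538 of all 47875 tested regions. These medians describe the lists and were not tested against other regions.

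The Rag2 promoter region (chr2:101624564-101624812, summit 17 bp before the start) was called higher after 1 h and after 2 h and was above its untreated level in every induced library. Its peak stood at the 25.1 and 14.8 percentile of its list in the 2 replicates at 0 h, at 70.8 and 52.1 after 30 min, at 82.7 and 82.2 after 1 h and at 80.4 and 73.5 after 2 h. The order of the times was therefore 0 h, 30 min, 2 h and 1 h, with no overlap between neighbours in this order. Recovered fragments at the summit were 8 and 5 at 0 h and 31 and 26 after 2 h. Over the background of each library this was 4.37 times the 0 h level after 2 h. The shift in normal score was 1.19 ± 0.29 (SE) after 30 min with an adjusted p of 0.0622, 2.05 ± 0.29 after 1 h with an adjusted p of 0.0032, and 1.79 ± 0.29 after 2 h with an adjusted p of 0.00341. Leaving out any single 0 h or 2 h library kept the direction after 2 h but ended the call. The shift was then 1.5 (without 0 h replicate 2) to 1.93 (without 2 h replicate 2). In these fits few or no regions anywhere were called. A second region at Rag2 +0.6 kb, in its intron, was gained after 1 h with 11 and 9 fragments. It was in 1 list each after 30 min and 2 h.

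The Rag1 promoter had lower values after induction, without passing the threshold. Its region (chr2:101649435-101649762, summit 82 bp before the start) also covers the start of a transcript of B230118H07Rik, a gene that spans the locus, so accessibility of these starts cannot be told apart. Its percentile was 75.5 and 65.6 at 0 h. At 30 min replicate 1 had no peak and replicate 2 was at 8.9, and the values were 18.4 and 38.1 after 1 h and 36.7 and 36.5 after 2 h. Fragments at its summit were 26 and 17 at 0 h and 15 and 14 after 2 h, 0.671 times the 0 h level over background. The local background was 1.10 and 0.867 at 0 h and 1.48 and 1.40 after 2 h. The fold that was ranked therefore fell more than the fragments. Every induced library was below both untreated ones in percentile, but the region was not in the 47875 tested because 1 list lacked it. With absent peaks ranked below all peaks of their list, a fit added after the data were seen that covers 126504 regions, its shift was -0.81 ± 0.31 (SE) after 2 h (adjusted p = 0.102) and -1.08 ± 0.25 for the mean of the induced times (adjusted p = 0.0207), neither under 0.01. With 30 min replicate 1 left out, the shift after 2 h was -1.32 (adjusted p = 0.0229).

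Just 5′ of Rag1, a peak disappeared and another appeared, with summits 416 bp apart and 182 bp between the regions. The -1.6 kb region (chr2:101650971-101651204) had a peak at the 60.1 and 71.3 percentile in the untreated libraries, from 19 and 20 fragments, and none in the 6 induced libraries. The -1.2 kb region (chr2:101650541-101650788) had no peak in either untreated library, 13 and 12 fragments after 30 min, 24 and 38 after 1 h and 35 and 34 after 2 h. Its percentile was 49.7 and 45.9 after 30 min, 68.2 and 84.6 after 1 h and 79.3 and 81.1 after 2 h. The 30 min libraries were thus below all those of 1 h and 2 h, and the ranges of 1 h and 2 h overlapped. An absent peak is one that did not pass the caller's threshold (the lowest −log10 q in the lists was 1.3), which is not a level of 0. No p-value is given for this pair, since each region has peaks at 0 h alone or after induction alone. In the fit with absent peaks ranked lowest, the Rag2 promoter had an adjusted p of 0.012 and Rag2 -16.0 kb one of 0.02 after 2 h, neither a call. That fit called 3 of 45 members lower (background 6.27%), namely Rag1 -1.6 kb, Rag2 -25.8 kb and Dntt +70.3 kb, and 1 higher (background 2.36%), Rag1 -1.2 kb, after 2 h. Of these 4 only Rag2 -25.8 kb had a peak in every list, and for the others the call restates the presence of their peaks.

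**Figure D2:**
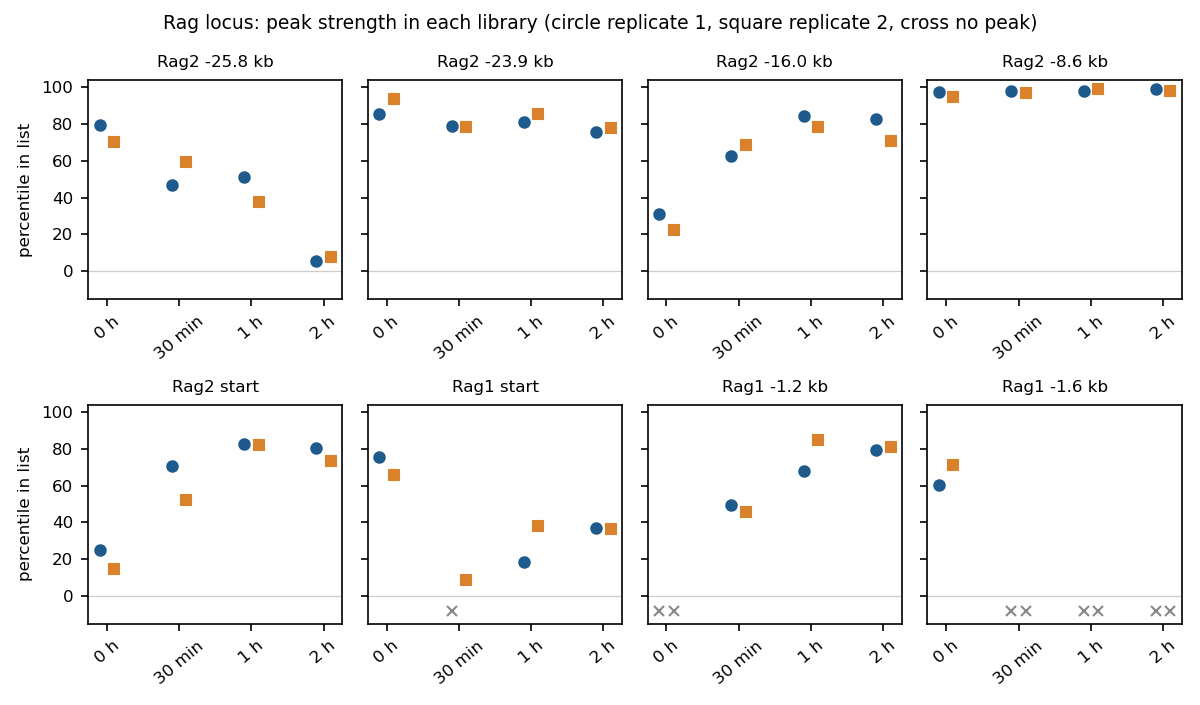
Percentile of the peak within its list (0 to 100) at each time for 8 regions of the Rag locus, named by the distance of the summit from the Rag2 or Rag1 start. Circles are replicate 1, squares replicate 2 and crosses below 0 are libraries with no peak. The Rag2 start rises from 25.1 and 14.8 to 80.4 and 73.5, the Rag1 start goes from 75.5 and 65.6 to 36.7 and 36.5, and the neighbouring Rag1 -1.2 kb and -1.6 kb regions replace each other between 0 h and 30 min.

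On the 5′ side of Rag2, 13 regions other than the promoter had a peak in some list, out to -27.3 kb, and 6 of them had one in all 8 lists. They lie in introns of B230118H07Rik. The strongest member of the locus was the -8.6 kb region (chr2:101615962-101616225), at the 97.3 and 94.7 percentile at 0 h, 98.0 and 97.0 after 30 min, 98.1 and 99.3 after 1 h and 99.0 and 98.2 after 2 h. It stayed among the top peaks of every list, and its shift after 2 h was 0.44 ± 0.28 (SE, adjusted p = 0.296). Fragments at its summit were 49 and 36 at 0 h and 75 and 66 after 2 h, 1.63 times the 0 h level over background.

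The -16.0 kb region (chr2:101608600-101608845) was called higher at the same times as the Rag2 promoter. Its percentile was 31.2 and 22.3 at 0 h, 62.9 and 68.7 after 30 min, 84.5 and 78.2 after 1 h and 83.1 and 70.8 after 2 h. All induced libraries were above both untreated ones, and the 1 h and 2 h ranges overlapped. It had 7 and 5 fragments at 0 h and 22 and 15 after 2 h, 2.99 times the level over background. The shift was 1.07 ± 0.29 (SE) after 30 min (adjusted p = 0.0854), 1.74 ± 0.29 after 1 h (adjusted p = 0.00586) and 1.53 ± 0.29 after 2 h (adjusted p = 0.00669). Leaving out any single library of 0 h, 1 h or 2 h kept the direction after 2 h but ended the call. The shift was then 1.29 (without 2 h replicate 1) to 1.79 (without 2 h replicate 2). Without a 0 h or 2 h library, few or no regions anywhere were called.

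The -25.8 kb region (chr2:101598804-101599100) had the lowest shift in normal score of the 24 tested members after 2 h, although on recovered fragments over background Dntt +10.0 kb was lower, at 0.292 against 0.308 times the 0 h level. It was at the 79.6 and 70.3 percentile at 0 h, 46.7 and 59.2 after 30 min, 51.1 and 37.9 after 1 h and 5.4 and 7.6 after 2 h. The 30 min and 1 h ranges overlapped, and both lay between those of 0 h and 2 h. Fragments at the summit were 52 and 30 at 0 h and 12 and 13 after 2 h. The shift was -1.03 ± 0.30 (SE) after 30 min (adjusted p = 0.104), -1.30 ± 0.30 after 1 h (adjusted p = 0.0211) and -2.60 ± 0.30 after 2 h (adjusted p = 0.00126). Leaving out a single 0 h or 2 h library gave shifts after 2 h from -2.77 to -2.42. The region was not called in these fits, where few or no regions anywhere were called. Fitted over regions in at least 2 lists with missing values left missing, none of the 3 calls at 2 h held. The adjusted p (limma) was 0.0185 here, 0.0249 for -16.0 kb and 0.0217 for the Rag2 promoter. That fit called 0 of 75524 regions lower and 0 higher after 2 h, so no call could hold. Another region appeared 281 bp away at -26.1 kb in both 2 h lists and in no other, at the 7.8 and 14.8 percentile.

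The remaining regions 5′ of Rag2 that were tested did not pass the threshold at any time. The -23.9 kb region, the second highest of the locus at 0 h, was at the 85.3 and 93.9 percentile at 0 h and at 75.8 and 77.9 after 2 h (shift -0.83 ± 0.29, SE, adjusted p = 0.073). The -27.3 kb region had a shift of 0.55 ± 0.35 after 2 h (adjusted p = 0.297). For the -3.0 kb region, which lies by another start of B230118H07Rik, it was 0.30 ± 0.31 (adjusted p = 0.531). The -9.9 kb region was gained after 1 h and had no peak after 2 h, with 11 and 9 fragments. The 5 others, at -24.5, -18.0, -8.9, -8.3 and -8.2 kb, had a peak in a single list each, with 8 to 14 fragments.

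On the other side of Rag1, towards Traf6, 4 regions were tested and all had a shift above 0 after 2 h. The -16.1 kb region (chr2:101665374-101665676) was at the 79.5 and 90.5 percentile at 0 h and at 96.3 and 96.6 after 2 h. The groups did not overlap, and its shift of 0.79 ± 0.29 (SE) had an adjusted p of 0.0801. On centred recovered fragments it was called higher (adjusted p = 0.00564). The -44.5 kb region, in an intron of Traf6, was at 2.6 and 10.6 at 0 h, and at 66.4 and 30.6 after 2 h (shift 1.45 ± 0.38, adjusted p = 0.0257), from only 4 fragments in each 0 h library. The Rag1 -3.5 kb region had a shift of 0.66 ± 0.28 (adjusted p = 0.128) and the region at the start of Traf6, a signalling adaptor of the tumour necrosis factor receptor family, one of 0.19 ± 0.27 (adjusted p = 0.652).

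**Figure D3:**
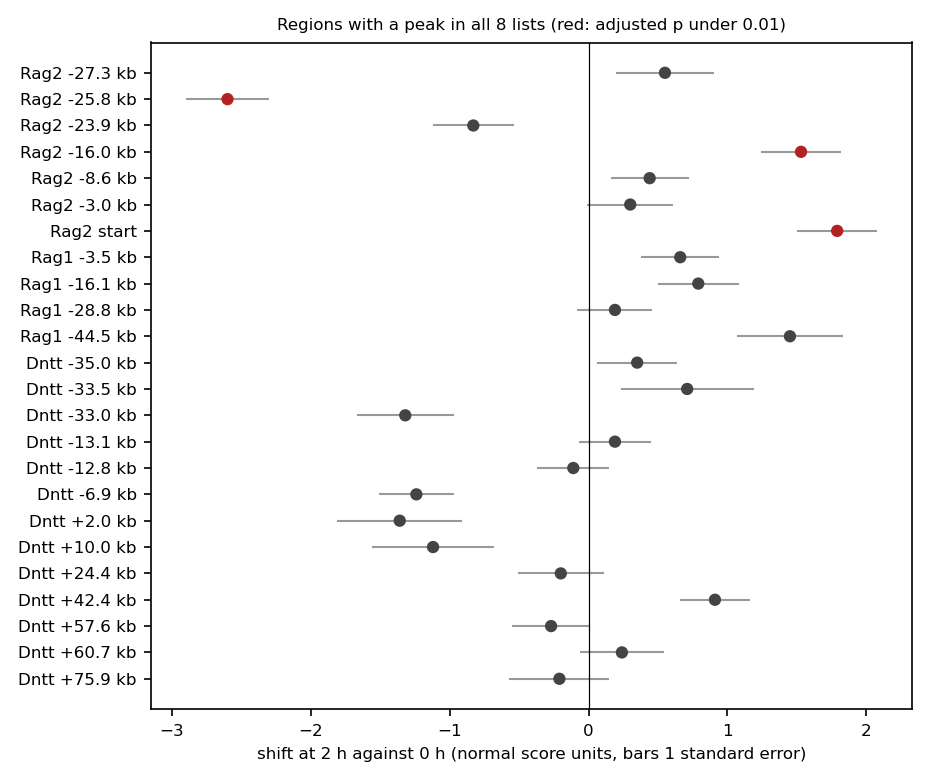
Shift in normal score after 2 h against 0 h for the 24 members present in all 8 lists, in genome order and named by distance from a gene start. Points are limma estimates, bars are 1 standard error, and red marks an adjusted p under 0.01. The 3 red points are Rag2 -25.8 kb at -2.60, Rag2 -16.0 kb at 1.53 and the Rag2 start at 1.79, and the 4 lowest Dntt points, from -33.0 kb to +10.0 kb, lie between -1.36 and -1.12.

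At Dntt none of the 13 regions present in every list was called lower or higher in any of the 4 contrasts by limma, while after 2 h the unadjusted p was under 0.05 for 4 of them below 0 h (background 17.4%) and for 1 above (background 17.1%). The nearest peaks to the gene start were a single-list peak of 5 fragments at -1.5 kb and an intronic region at +2.0 kb. The -6.9 kb region (chr19:41022228-41022659) was the second highest of the locus at 0 h, with percentiles of 94.5 and 87.1 before induction, 84.3 and 82.3 after 30 min, 75.0 and 66.4 after 1 h and 71.1 and 66.7 after 2 h. Each induced library was below both untreated ones, and the 1 h and 2 h ranges overlapped. Fragments at the summit were 60 and 35 at 0 h and 19 and 15 after 2 h, 0.358 times the 0 h level over background. The local background in the fold was 1.68 and 1.18 at 0 h and 0.731 and 0.552 after 2 h. The fold that was tested thus fell less than the fragments. The shift was -0.55 ± 0.27 (SE) after 30 min (adjusted p = 0.304), -1.16 ± 0.27 after 1 h (adjusted p = 0.0215) and -1.24 ± 0.27 after 2 h (adjusted p = 0.0124). On the scale of recovered fragments, each library centred on its median, the adjusted p after 2 h was 0.000492 and the region was called lower.

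Inside the gene, 4 intronic regions were in both untreated lists. Both 2 h libraries were below both untreated ones at +2.0 and +10.0 kb, an order that 29.8% of all tested regions showed, while the +7.0 kb region was lost and the groups overlapped at +24.4 kb. The +10.0 kb region (chr19:41039136-41039547), the highest of the locus at 0 h, was at the 94.2 and 90.8 percentile at 0 h, 87.2 and 87.1 after 30 min, 86.9 and 51.8 after 1 h and 83.9 and 62.4 after 2 h. It had 93 and 57 fragments at 0 h and 28 and 17 after 2 h, 0.292 times the level over background. Its local background was 3.20 and 2.12 at 0 h and 0.831 and 0.903 after 2 h, so here too the fold fell less than the fragments. All induced libraries were below the untreated ones, yet replicate 2 was far lower than replicate 1 after 1 h and 2 h, and the shift of -1.12 ± 0.44 (SE) after 2 h had an adjusted p of 0.101. On centred fragments the same difference had an adjusted p of 0.00211, a call lower.

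The +2.0 kb region (chr19:41030964-41031351) showed the same split between replicates. It was at the 74.1 and 75.4 percentile at 0 h, 78.0 and 67.5 after 30 min, 60.9 and 26.8 after 1 h and 61.9 and 17.4 after 2 h, with a shift of -1.36 ± 0.45 (SE, adjusted p = 0.0581) after 2 h. The +7.0 kb region (chr19:41036002-41036378) was lost after 2 h: it had 42 and 32 fragments at 0 h, 15 in 1 library of 30 min, 9 in 1 library of 1 h, and no peak after 2 h. Both libraries that kept its peak, after 30 min and after 1 h, were replicate 2.

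**Figure D4:**
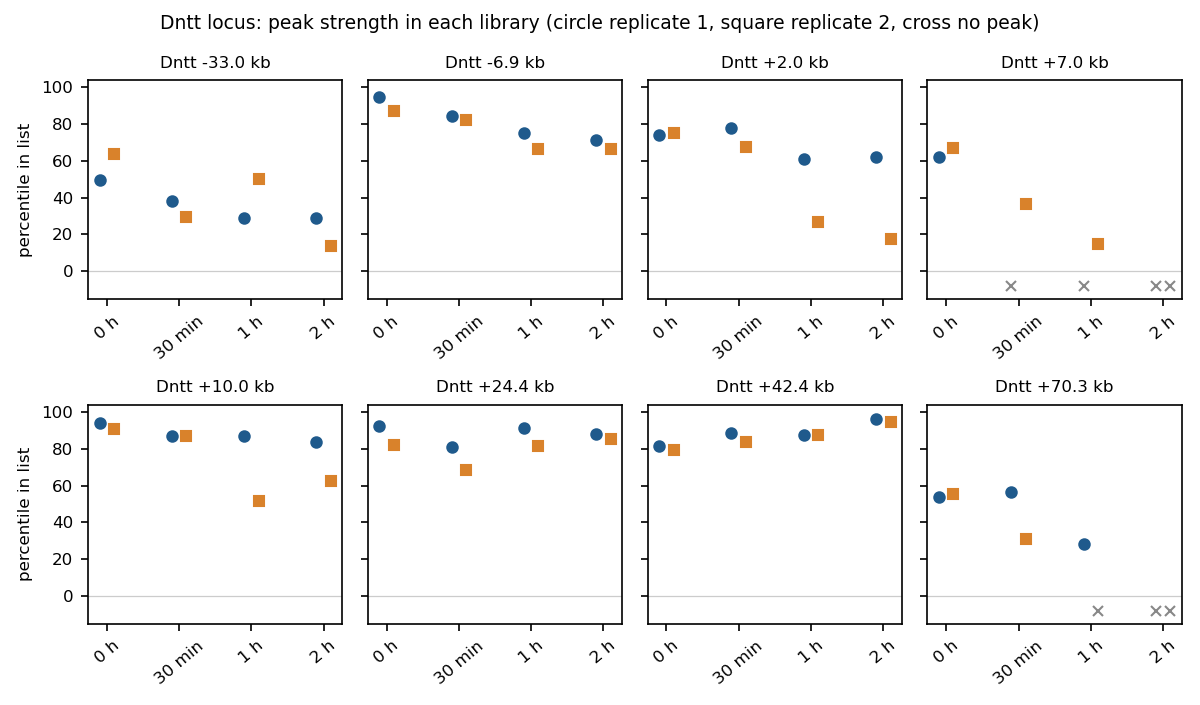
Percentile of the peak within its list (0 to 100) at each time for 8 regions around Dntt, named by the distance of the summit from the Dntt start. Circles are replicate 1, squares replicate 2 and crosses below 0 are libraries with no peak. The -6.9 kb region goes from 94.5 and 87.1 to 71.1 and 66.7, the +7.0 kb region has no peak after 2 h, and the +42.4 kb region from 81.7 and 79.2 to 96.2 and 94.7.

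Further from the gene the values went both ways. The +24.4 kb region, in the last part of the gene body, was at the 92.4 and 82.3 percentile at 0 h and 87.9 and 85.3 after 2 h, and these groups overlapped (shift -0.20 ± 0.31, SE, adjusted p = 0.694). The -33.0 kb region, between Dntt and Blnk, was at 49.4 and 63.7 at 0 h and 28.8 and 14.0 after 2 h (shift -1.32 ± 0.35, adjusted p = 0.0263). The region at the start of Blnk, which encodes an adaptor of the pre-B cell receptor, had a shift of 0.35 ± 0.29 (adjusted p = 0.433). The +42.4 kb region, in an intron of Opalin, was at 81.7 and 79.2 at 0 h and 96.2 and 94.7 after 2 h (shift 0.91 ± 0.25, adjusted p = 0.0312). The 6 other tested regions of the locus had shifts from -0.27 to 0.71 after 2 h.

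Presence of peaks was counted apart from strength. Of the 31 members in both 0 h lists, 2 were lost after 30 min (background 10.9%), 2 after 1 h (background 14.6%) and 4 after 2 h (background 16.6%), lost meaning no peak in either list of that time. Gained members, in the reverse case, were 1 of 30 after 30 min (background 10.3%), 6 of 34 after 1 h (background 17.0%) and 6 of 35 after 2 h (background 20.5%). The 4 lost after 2 h were Rag1 -1.6 kb, Dntt +7.0 kb, Dntt -21.8 kb and Dntt +70.3 kb. The Dntt -21.8 kb peak rested on 4 and 8 fragments and the +70.3 kb peak on 11 and 9 at 0 h. With absent peaks ranked lowest, Dntt +70.3 kb was called lower after 2 h (shift -1.57 ± 0.30, SE, adjusted p = 0.00982), in a fit where both 2 h values are absent peaks. The 6 gained after 2 h were Rag1 -1.2 kb and Rag2 -26.1 kb and, around Dntt, -45.4, -17.4, +68.4 and +75.4 kb. Of these, only Rag1 -1.2 kb had more than 20 fragments in its 2 h libraries. Dntt -29.5 kb was gained after 1 h and had a peak in 1 list of 2 h.

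Among promoters of other genes, those most like the Rag2 promoter over the 8 libraries were Cpt2 (Pearson r = 0.987), Gfi1b (r = 0.981) and Elovl7 (r = 0.975), of 10081 protein-coding genes with a promoter region in all lists. These r values are descriptions over 8 libraries of 4 times, and the genes share those libraries. Cpt2 encodes a mitochondrial enzyme of fatty acid import, Gfi1b a zinc finger repressor known to act on Rag transcription, and Elovl7 a fatty acid elongase. The mean percentile of the Gfi1b promoter was 83.4 at 0 h and 96.4 after 2 h, with a shift of 0.92 ± 0.27 (SE) after 2 h that missed the threshold (adjusted p = 0.0383).

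Partner proteins of RAG in recombination were followed at their promoters, with a list of 18 genes of DNA bending, end joining and break signalling. Of 17 tested, 1 was lower (background 4.71%) and none higher (background 2.28%) after 2 h by limma, with a median shift of -0.27 beside 0.06 over all tested regions. The unadjusted p was under 0.05 for 5 below (background 17.4%) and 1 above (background 17.1%). The lower one was Polm, a DNA polymerase of end joining that is related to Dntt, with a mean percentile of 92.9 at 0 h and 64.3 after 2 h (shift -1.53 ± 0.27, SE, adjusted p = 0.00494). The largest value above 0 was that of Lig4, the ligase of end joining, with 1.05 ± 0.27 (adjusted p = 0.0222). For Xrcc5 (Ku80) the shift after 2 h was -1.15 ± 0.30 (adjusted p = 0.0257) and for Xrcc6 (Ku70) 0.38 ± 0.31 (adjusted p = 0.413). For the mean of the induced times against 0 h, 1 promoter of the 17 was called lower (background 4.57%) and none higher (background 2.53%). It was that of Xrcc5 (shift -1.24 ± 0.25, SE, limma, adjusted p = 0.00789), while Polm had -1.05 ± 0.22 (adjusted p = 0.0103). None of the 17 was called after 30 min by limma, where the unadjusted p was under 0.05 for 2 below (background 9.94%) and 1 above (background 9.51%). None was called after 1 h either, with 5 below (background 15.5%) and 1 above (background 14.9%) at an unadjusted p under 0.05.

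Of 15 transcription factors known to bind or control these genes, 13 had a tested promoter region and none was called lower (background 4.71%) or higher (background 2.28%) after 2 h by limma, with a median shift of 0.20 beside 0.06 over all tested regions. The unadjusted p was under 0.05 for 1 below (background 17.4%) and 3 above (background 17.1%). The shift of Foxo1, an activator of the Rag genes, was -0.32 ± 0.31 (SE, adjusted p = 0.509), and that of Tcf3, which encodes the E2A proteins, was -0.66 ± 0.26 (adjusted p = 0.104). Ikzf1 and Ikzf3, which encode Ikaros and Aiolos, were not analysed here, since no promoter region of theirs entered the fit.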

How the data were processed

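ATAC-seq was performed by the authors on B3 pre-B cells with Ikaros-ERt2 (8 libraries). Per the labels and the study's methods, bcl2fastq 2.20.0 split the libraries, reads were aligned with BWA 0.7.17, shifted for the Tn5 offset with deepTools 2.3.5, restricted to short, nucleosome-free fragments, and peaks were called on each library with MACS2 2.1.2; SAMtools 1.9 and bedtools 2.27.1 are also named. The methods name a human genome, but peaks of all 21 chromosomes lie inside the GRCm38 lengths, the build that the submitters' processing notes give. The deposited lists give each peak a ratio (the fold of pileup over local background), a −log10 p-value and a −log10 q-value, unscaled between libraries. A fold therefore falls when the local background rises, and falls less than the fragments when the local background falls with them. Depth could not be read from counts, since the lists hold none, and was taken from recovered fragments (fold = (fragments + 1)/(background + 1) with a Poisson p-value); precision is limited by counting error.

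Overlapping peaks were merged, and a member's summit lies within 50 kb of a gene body (GENCODE M21). Normal scores of the fold were fitted with limma 3.58.1 (R 4.3.3; 4 groups, 1 model, Benjamini-Hochberg over all 47875 regions) after a check on simulated data. A promoter region lies within 1 kb of a start. Named regions were member promoters, called, lost or gained members, the 5 highest at 0 h per locus, and all regions 5′ of Rag2; others are given after their values were seen. Members and lists were chosen with earlier results of these data known. Alternatives changed the ranking, scale, filter, region definition, fit, threshold and libraries.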

Additional observations from a re-analysis of the deposited data

How the results depend on the processing

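The window set the number of members, 30 with 20 kb. Of 278 alternative values of the 2 h shifts of named regions, 244 kept direction and side of the threshold, 20 of called and 12 of uncalled regions crossed it, and 2 changed sign (Dntt +24.4 kb, from -0.46 to 0.07 when single libraries were left out and above 0 without 0 h replicate 1, and Rag2 -3.0 kb, from -0.04 to 0.60 and below 0 without 0 h replicate 2). Some of these settings called few or no regions anywhere, so a called member could hardly hold there. Background, in brackets, is the share of all tested regions called in the same setting. Member calls, lower and higher, were 1 (background 4.71%) and 2 (background 2.28%) at 2 h. Lower calls at 2 h numbered 3 with absent peaks ranked lowest (6.27%), 0 with lists of equal length (4.51%) and 2 when ranked by −log10 p (5.28%). They were 4 on centred (9.37%) and 3 on uncentred recovered fragments (7.16%) and 0 for regions in at least 2 lists (0%). With a mean trend and robust prior they were 2 (6.83%), and 3 at an adjusted p under 0.05 (11.1%). For the mean of induced times they were 2 (7.65%), 0 (4.21%), 2 (4.91%), 3 (9.06%), 3 (7.33%), 0 (0%), 2 (6.42%) and 3 (10.7%) in that order. At 1 h, instead of 0, they were 1 with absent peaks ranked lowest (4.33%) and 2 on centred (6.63%) and on uncentred fragments (5.16%). They were 1 with the trend (4.43%) and 3 at 0.05 (8.18%), and at 30 min 1 with absent peaks ranked lowest (0.549%). Higher calls at 2 h were 1 with absent peaks ranked lowest (2.36%), 0 with −log10 q of at least 5 (2.67%) and 4 on uncentred fragments (7.87%). They were 0 for regions in at least 2 lists (0%) and 4 at 0.05 (8.34%). At 1 h they were 0 with −log10 q of at least 5 (1.46%) and 0 for regions in at least 2 lists (0%). For the mean they were 0 with −log10 q of at least 5 (2.99%) and 5 on centred (5.81%) and on uncentred fragments (7.2%). They were also 0 for regions in at least 2 lists (0%) and 4 at 0.05 (8.62%). Fewer members enter some settings (17 with −log10 q of at least 5). The Rag2 promoter and Rag2 -16.0 kb, the regions called higher, were not tested with that filter. Rag2 -25.8 kb was tested neither with that filter nor with lists of equal length. The counts of 0 in these settings therefore do not show that these calls failed. With that filter the lower call at 2 h was Dntt -6.9 kb (limma, adjusted p = 0.00789), a different region from Rag2 -25.8 kb.

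Leaving out 1 library at a time left few or no regions called anywhere at the time point that lost it. Without a 0 h library this was so at every time and for the mean. Member calls could hardly hold in those fits. A time point then has a lone sample, assumed to vary like the others. Lost members ranged over 3 to 5 at 30 min, 3 to 5 at 1 h and 4 to 7 at 2 h, the highest without 0 h replicate 2. Their backgrounds were 14.0% to 19.8%, 18.0% to 23.0% and 20.5% to 24.7%. Gained ones ranged over 2 to 6 (most without 30 min replicate 1), 7 to 11 (most without 1 h replicate 2) and 6 to 10 (most without 2 h replicate 2), since a single list then decides presence. The backgrounds of the gained were 14.5% to 22.9%, 21.5% to 28.9% and 25.2% to 31.3%. With −log10 q of at least 5, lost members were 1 at 30 min (background 6.47%) and 1 at 1 h (9.9%). Gained ones were 1 at 1 h (10.4%) and 3 at 2 h (13.6%). With lists of equal length these 4 counts were 1 (11.8%), 1 (16.8%), 3 (14.9%) and 3 (17.4%).

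Replicate numbers did not pair the libraries (correlations of their deviations 0.017 to 0.04). With the replicate block, 1 member was higher at 2 h (background 1.8%) instead of 2, since Rag2 -16.0 kb had an adjusted p of 0.0102 (limma). The other member counts were 0 to 2 as in the unblocked fit. The cause of these changes was not tested. Depth limits all of this: with few fragments at a summit, presence near the caller's threshold turns on single fragments.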
